A study of Mus musculus with 24 samples.

Results

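The comparison described here sets 3 CD4 T cell libraries from Atm-deficient mice (genotype Atm-/-, KO) against 3 from wild-type mice (Atmwt/wt, WT), all of which had received a B-cell lymphoma transplant. They are 6 of the 24 libraries in the series and were taken by their labels, with every gene of the deposited table examined. The mice were C57BL/6N, and T lymphocytes were taken from the spleen with a magnetic isolation kit (EasySep). Polyadenylated RNA was sequenced as short tags from the 3′ end of transcripts (Lexogen QuantSeq FWD). A single mouse gave each WT lymphoma library, whereas the cells of 2 mice were pooled for each KO lymphoma library. The other libraries are CD8 T cells of the same mice, and CD4 and CD8 T cells of both genotypes from mice without a transplant (control). The disrupted Atm allele, the age and sex of the mice and the step that separated CD4 from CD8 cells are not given in the sources used here.

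Atm encodes a protein kinase that is activated by DNA double-strand breaks and phosphorylates p53, Chek2 and histone H2AX, among many other substrates. In lymphocytes it also stabilises the broken ends made when antigen receptor genes are rearranged, and patients and mice without it have few T cells and often develop lymphoma. CD4 T cells recognise peptide on MHC class II. They circulate as naive cells that express Ccr7, Il7r and Lef1, and on activation they lose these and acquire effector, follicular helper or regulatory programmes. The comparison addresses what the T cells of a lymphoma-bearing host express when the host, and so the T cell, lacks Atm.

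Levels are given as CPM (counts scaled to an equal library total and corrected for library composition), as the values of libraries 1, 2 and 3 of each group. Fold changes are log2(KO/WT) with the standard error after ±, from 1 fit over the 12 CD4 libraries, and adjusted p stands for the quasi-likelihood p of edgeR after Benjamini-Hochberg adjustment over the 12808 genes tested. The 6 libraries held 7046205 to 9987013 counts and 16007 to 16502 detected genes. KO lymphoma 3 stood apart from the rest. Over all genes tested its log2 CPM correlated with the other 5 libraries at 0.912 to 0.947, and the other 10 pairs at 0.958 to 0.97. The summed level of the Y-linked genes Uty, Ddx3y and Eif2s3y was at 117 CPM in WT lymphoma 3 and 47.7 in KO lymphoma 3, against 0.944 to 4.87 in the other 4. The p-values measure the spread between libraries within groups, shared over the 12 CD4 libraries with the controls included. As some libraries are pools of mice, it is not a spread between single mice. In bulk RNA fewer cells of a type cannot be told apart from less RNA per cell.

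The labels were checked first. Atm (chr9:53439149-53536740, GRCm38) was at 156, 177 and 118 CPM in WT and at 71.8, 104.6 and 24.9 in KO libraries. All 3 KO values lay below all 3 WT values, and the lowest was that of KO lymphoma 3. The fold change was -1.16 ± 0.38 (adjusted p = 0.365), -0.78 without KO lymphoma 3, and -0.43 with a pan-T score (below) as a covariate. Since the allele is not given, whether tags of the disrupted gene are counted as Atm is unknown. Cd4, the co-receptor, was at 133, 106 and 104 CPM in WT and at 79.7, 98.5 and 65.9 in KO (-0.49 ± 0.16, adjusted p = 0.364). Zbtb7b (ThPOK), which drives CD4 commitment in the thymus, was also lower in every KO library (-0.54 ± 0.16, adjusted p = 0.354). Cd8a stayed between 2.85 and 23.6 CPM and Cd8b1 between 11.8 and 41.7 in the 6 libraries, with the groups overlapping. Of 13 CD8 lineage genes 4 lay above WT in all KO libraries and 0 below (median 0.27), and of 10 CD4 lineage genes 0 and 3 (median -0.25), where 6.58% of all genes lay above and 6.24% below. Cd8a and Cd8b1 are not among the 4. Many other members of the CD8 list are also expressed by effector and natural killer cells.

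No gene passed the adjusted threshold of 0.05 between KO and WT CD4 T cells from lymphoma-bearing mice, a called share of 0% of 12808 genes. The smallest adjusted p was 0.128, shared by 4 genes: Rplp1 and its copies Gm11942 and Gm5244, and Tsc22d3. At an unadjusted p under 0.05 there were 754 higher and 636 lower genes (5.89% and 4.97%). The 3 KO values lay above the 3 WT values for 843 genes (6.58%) and below them for 799 (6.24%), and these shares are the background for every list. With 1 library left out, 3 libraries stand against 2 and separation is more frequent over all genes. The shares above and below WT were then 8.32% and 8.22% without WT lymphoma 1, 9.56% and 9.33% without WT lymphoma 2, and 14.8% each without WT lymphoma 3. They were 10.3% and 9.88% without KO lymphoma 1, 16.3% and 16.8% without KO lymphoma 2, and 12% and 11.5% without KO lymphoma 3. In the same 12 libraries DESeq2 called 85 genes (58 higher, 27 lower) and limma voom with sample weights 81 (63 higher, 18 lower). They shared 44 genes, 51.8% of the DESeq2 and 54.3% of the voom calls. With any 1 of the 12 libraries left out, edgeR called 0 to 3 genes. It called 3 without WT control 2 (Rplp1, Gm11942 and Gm5244), 3 without WT control 3 (Rplp1, Gm5244 and Tsc22d3), and Tmie alone without KO lymphoma 2. The count at an unadjusted p under 0.05 was 728 without WT lymphoma 1, 903 without WT lymphoma 2 and 2771 without KO lymphoma 2.

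The gene with the lowest p among those with a named product was Rplp1 (chr9:61913284-61914542), which encodes the acidic stalk protein P1 of the large ribosomal subunit. Because tag libraries read transcripts near their 3′ end, the last 120 bases of its coding sequence are shown with those of Gm11942, a processed pseudogene on another chromosome (chr4:32964888-32965232). Both are from GENCODE M21 transcripts, positions 226 to 345 of the coding sequence counted from the first base of the start codon, and capitals mark the bases that differ.
Rplp1: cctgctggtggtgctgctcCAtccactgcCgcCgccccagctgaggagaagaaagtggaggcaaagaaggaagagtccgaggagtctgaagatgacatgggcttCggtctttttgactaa
Gm11942: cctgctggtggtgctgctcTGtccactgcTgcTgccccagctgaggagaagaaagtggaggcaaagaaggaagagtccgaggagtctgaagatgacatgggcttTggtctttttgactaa
Over all 345 bases the sequences are 97.4% identical and differ at 9 positions, of which C245T, A246G, C255T, C258T and C330T lie in the stretch shown.

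Rplp1 was at 9139, 8767 and 8820 CPM in WT and at 3376, 3613 and 2806 in KO libraries. The WT values were close together and every KO value was far below them. The fold change was -1.45 ± 0.23 (adjusted p = 0.128). Gm11942 went the other way, with 12.1, 8.5 and 14.5 CPM in WT and 347, 657 and 449 in KO libraries (5.38 ± 0.82, adjusted p = 0.128). Gm5244, a copy on chromosome 19 (chr19:12846682-12847424) that is 89.4% identical to the Rplp1 coding sequence, was at 0.898, 0.918 and 1.14 in WT and 7.08, 9.25 and 8.43 in KO (3.05 ± 0.43, adjusted p = 0.128). Both copies were thus higher in all 3 KO libraries, and Gm10073, 98.6% identical, was at 8.15 to 13.4 in WT and 5.73 to 7.78 in KO.

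Rplp1 and the 11 copies in the table were therefore also added up. The copies made up 0.208 to 0.336% of that sum in WT and 9.67 to 15.7% in KO libraries. The sum itself ran from 8785 to 9164 CPM in WT and from 3270 to 4288 in KO (-1.25 ± 0.22, adjusted p = 0.253), so the lower level in KO libraries was not made up by the counts given to the copies. Counts of each member are uncertain, since reads from near-identical copies can be divided among them, and how they were divided here was not tested.

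The same pattern was present without lymphoma and in CD8 cells. In CD8 T cells of the same lymphoma-bearing mice Rplp1 differed by -1.43 (adjusted p = 0.0121) and the copies held 8.19 to 15.9% of the sum in KO, against 0.246 to 0.279% in WT. In CD4 controls Rplp1 differed by -1.37, with copies at 12.9 to 14.6% in KO. There the WT libraries were split: the copies held 3% in WT control 1, 0.347% in WT control 2 and 4.66% in WT control 3. Without WT control 2 the CD4 lymphoma comparison called Gm11942 (adjusted p = 1.67e-05), Gm5244 (0.000707) and Rplp1 (0.0022). With the 6 lymphoma libraries alone edgeR called Gm11942 only (adjusted p = 0.00602), and the same gene with the replicate number as a block (0.0388).

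**Figure D1:**
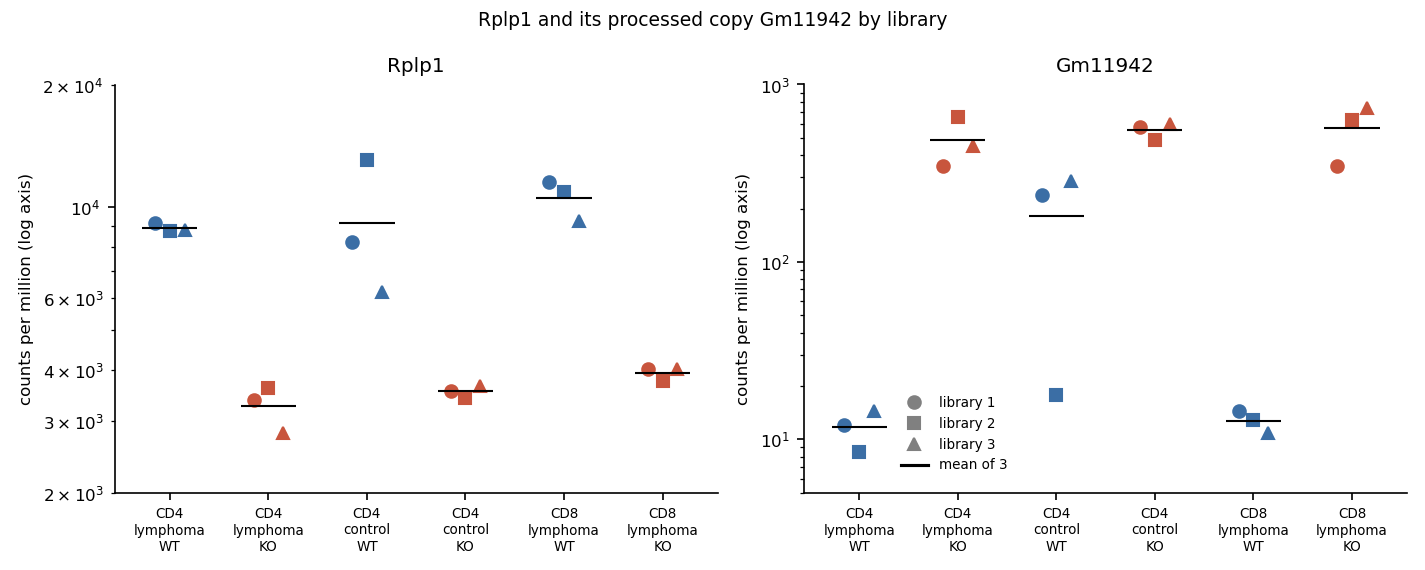
Level of Rplp1 (left) and of its processed copy Gm11942 (right) in CPM on log axes, for WT (blue) and KO (red) libraries of 3 pairs of groups. Symbols are libraries 1 to 3 and lines are means. All KO libraries lie at 2806 to 4027 CPM for Rplp1 and at 347 to 734 for Gm11942, and WT controls 1 and 3 are the only WT libraries with more than 20 CPM of Gm11942.

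Among genes lower in KO CD4 cells, Tsc22d3 had the second smallest p of those with a named product. It lies on the X chromosome and encodes the glucocorticoid-induced leucine zipper protein GILZ, which damps inflammatory transcription. Its level was 262, 331 and 216 CPM in WT and 103, 126 and 88.6 in KO libraries. The lowest WT library was well above the highest KO library. The fold change was -1.35 ± 0.21 (adjusted p = 0.128, 5.19e-06 by DESeq2 and 0.0232 by voom). In CD4 controls the difference was only -0.14, with overlapping libraries. The test of the difference between these genotype effects gave an unadjusted p = 0.00154 and an adjusted p of 0.9999. In CD8 cells of the lymphoma-bearing mice Tsc22d3 differed by -0.85 (edgeR adjusted p = 0.123), with every KO library below every WT library.

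Further genes stood lower in every KO library. Gpr83, a receptor of regulatory T cells, was at 17.4, 13.3 and 13.2 CPM in WT and at 7.91, 6.62 and 5.85 in KO (-1.11 ± 0.22, adjusted p = 0.23). Itpkb, a kinase that makes inositol tetrakisphosphate and is needed for T cell development, was at 81.8, 88.4 and 69.2 in WT and at 46.4, 55.1 and 33.1 in KO (-0.83 ± 0.17, adjusted p = 0.23). The gap between the groups was wider than the spread within either group for Gpr83, and smaller for Itpkb. Tmie, a transmembrane protein best known from inner-ear hair cells, was at 81.7, 62.3 and 66.2 in WT and at 22.8, 42.1 and 14.3 in KO (-1.41 ± 0.29, adjusted p = 0.234). It was the one gene edgeR called when KO lymphoma 2, the highest of its KO libraries, was left out (-1.90, adjusted p = 0.00779). In CD8 cells Tmie differed by -1.98 (adjusted p = 0.0103). The other genes with the lowest p were Mtss1 (-0.71), Sfmbt2 (-1.11), Parp16 (-0.81), Cfap43 (-0.76) and Pacsin1 (-1.14), with adjusted p from 0.23 to 0.242.

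By size of difference the lower genes were led by Nphs1, which encodes nephrin of the kidney filter and is here at 4.87, 6.54 and 12.4 CPM in WT and 0.236, 3.68 and 0 in KO. In CD4 controls this gene went the other way (1.55). Xkrx (-1.56), the AMP deaminase Ampd1 (-1.29), Satb1 (-1.12) and Plekha7 (-1.03) followed. The plot of named genes shows that KO lymphoma 3 was the lowest KO library for most of them.

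Genes higher in KO libraries included cytokine, receptor and enzyme genes that myeloid cells express. Il18 (chr9:50554827-50581840), a cytokine that induces interferon gamma, was at 41.6, 43.3 and 46.1 CPM in WT and at 122, 126 and 79 in KO. Its WT values were nearly equal and all KO values exceeded them (1.32 ± 0.25, adjusted p = 0.23, 0.00109 by DESeq2 and 0.0132 by voom). Tbxas1, the thromboxane synthase of platelets and macrophages, was at 10.3, 11.6 and 14.4 in WT and at 24.8, 23.6 and 24.5 in KO (1.01 ± 0.19, adjusted p = 0.23). Itgad, an integrin chain of splenic macrophages, was at 25.6, 17.3 and 24.5 in WT and at 45.1, 41.1 and 50.7 in KO (1.02 ± 0.21, adjusted p = 0.23). The C-type lectin gene Clec4a2 (0.92), the cation channel gene Trpm2 (1.11) and the chemokine receptor gene Ccr3 (1.22) were likewise higher in all 3 KO libraries, with adjusted p = 0.23 for each.

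Other higher genes act in endocytosis, adhesion and T cell differentiation. Ehd1, which recycles membrane receptors, was at 59.1, 58.3 and 58.8 CPM in WT and at 93.7, 82.3 and 92.4 in KO (0.61 ± 0.12, adjusted p = 0.23). It was the smallest of the 15 differences and the one with the tightest WT values. Tox2, a transcription factor of follicular helper cells, was at 40.4, 31.5 and 42.4 in WT and at 76.6, 74.4 and 92.5 in KO (1.09 ± 0.23, adjusted p = 0.23). Sema6d (1.26) and the palmitoyltransferase gene Zdhhc2 (1.02) completed those with the lowest p. By size the list was led by Prss2 (2.33), a trypsinogen gene inside the T cell receptor beta locus, and Apba2 (2.12). The scavenger receptor gene Cd36 (1.80), the urokinase receptor gene Plaur (1.67) and the ganglioside synthase gene St3gal5 (1.66) followed. Prss2 and Plaur were low and their gaps small. Prss2 was at 2.565, 0.23 and 0.854 CPM in WT and at 3.07, 7.67 and 7.61 in KO (2.33 ± 1.02, adjusted p = 0.45). Plaur was at 2.99 in WT lymphoma 3 and 3.05 in KO lymphoma 2 (1.67 ± 0.74, adjusted p = 0.45).

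The size of the Apba2 and St3gal5 differences depended on 1 library. Apba2 was at 16.4, 7.58 and 12.5 CPM in WT and at 17.8, 26.1 and 115 in KO, and St3gal5 at 14.8, 11.8 and 25.4 in WT and at 39.2, 27.7 and 97.2 in KO. KO lymphoma 3 held the highest value of both, and without it the fold changes were 0.84 and 0.95. Both genes also lay above WT in all KO libraries of the CD4 controls (2.3 and 2.9). The same held in CD8 lymphoma libraries (2.44 and 2.39).

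**Figure D2:**
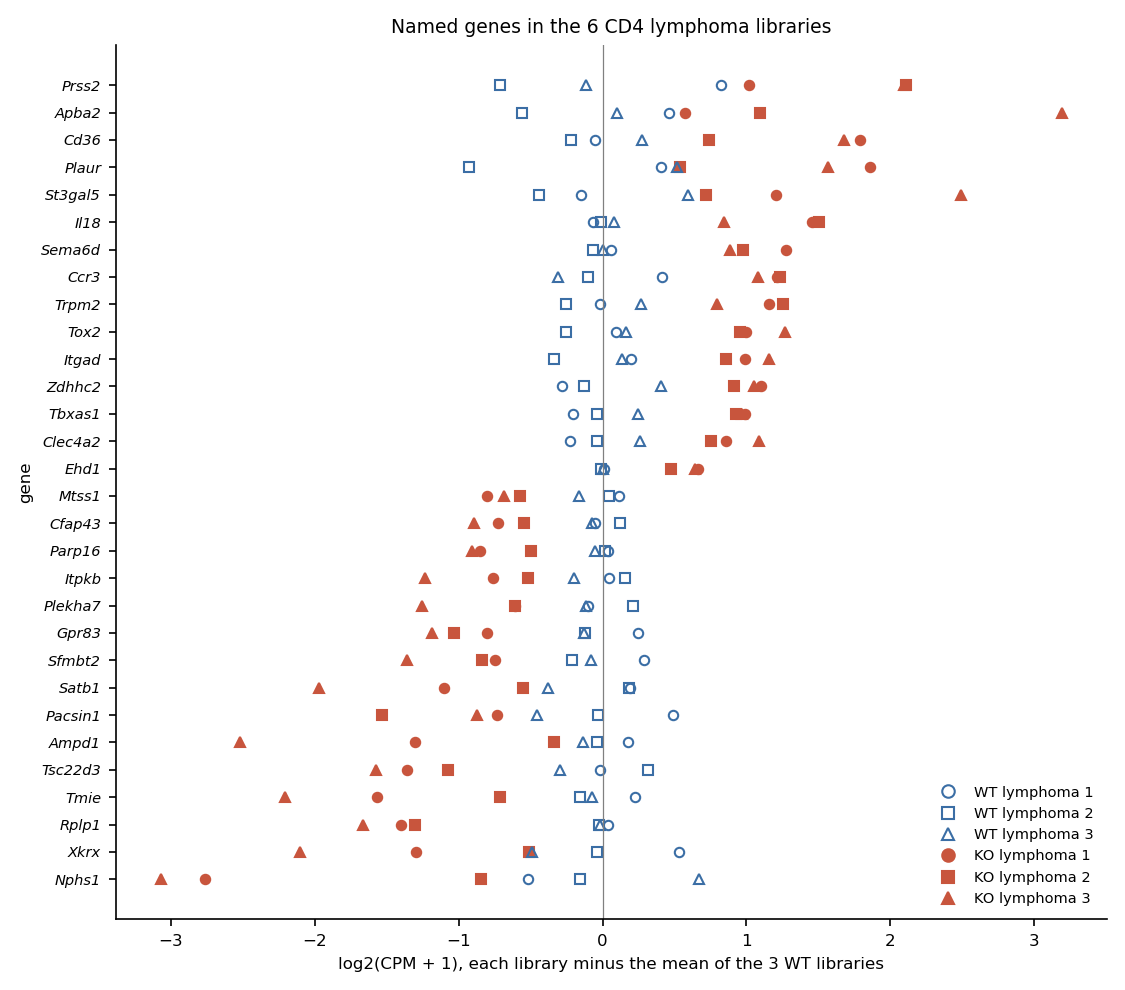
Each library's log2(CPM + 1) minus the mean of the 3 WT libraries, for the 15 higher and 15 lower genes chosen by rule (open blue WT, filled red KO). By that rule no KO library overlaps a WT library, and KO lymphoma 3 (triangles) is the far one for Apba2 and St3gal5.

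Macrophage transcripts were higher in the KO libraries. Of 28 monocyte and macrophage genes tested, 18 lay above WT in all KO libraries (64.3%, against 6.58% of all genes) and 0 below, and the median fold change was 0.82 against 0.01 for all genes. Their summed level was 2288, 2315 and 3098 CPM in WT and 4879, 3906 and 4121 in KO. The highest WT library was below the lowest KO library. C1qa, a complement component made by tissue macrophages, was at 282.3, 199.2 and 269.1 in WT and at 486, 524 and 467 in KO (0.98 ± 0.21, adjusted p = 0.242). Lysozyme (Lyz2), the most abundant of the list, overlapped between the groups (0.52 ± 0.36), and cathepsin S (Ctss) did not (0.45 ± 0.16). DESeq2 called 8 and voom 6 of the 28, out of 85 calls among 9573 genes and 81 among 12808. Those called by both included C1qa, Cd68, Csf1r, Fcgr3 and Vcam1, which are named after their values were seen. Vcam1, an adhesion molecule of red pulp macrophages, was at 206, 153 and 150 in WT and at 398, 326 and 524 in KO (1.29 ± 0.26, adjusted p = 0.23). Without KO lymphoma 3 the count was 19 of 28 and the median 0.81, where 12% of all genes lay above WT. Without WT lymphoma 3 it was 26 of 28, where 14.8% did.

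Natural killer and platelet transcripts were higher in the same libraries. Of 15 natural killer genes, 7 lay above WT and 0 below (median 0.87), and their sum was 164 to 269 CPM in WT and 365 to 516 in KO. Fcgr3 and Tyrobp are on both this list and the macrophage list. Gzma, the granule protease granzyme A, was at 31.3, 47.4 and 62.4 in WT and at 138, 139 and 66.9 in KO (1.29 ± 0.46, adjusted p = 0.385), with KO lymphoma 3 only just above WT. Without that library 13 of 15 lay above WT (12% of all genes did), with a median of 1.16. Of 14 platelet genes 6 lay above WT and 0 below (median 0.63), and 10 without KO lymphoma 3 (12%). Itga2b, the platelet integrin chain, was at 58.8 to 80.2 in WT and 89.8 to 126 in KO (0.69 ± 0.26, adjusted p = 0.386). Other cell types showed little or no separation with all 6 libraries. Of 28 B cell genes 1 lay above and 1 below WT (median 0.07), with Ighm, the immunoglobulin mu chain, at 222.9 to 259 CPM in WT and 213 to 345 in KO. None of 17 neutrophil, 17 erythroid or 19 blood progenitor genes separated the groups. The erythroid sum ran from 1618 to 3964 CPM in WT and from 2279 to 6038 in KO, and the erythroid median was 1.30 with and 0.35 without KO lymphoma 3. Of 10 MHC class II, 15 dendritic cell and 9 gamma-delta or innate-like T cell genes, 1 of each lay above WT and 0 below. Without KO lymphoma 2, 9 erythroid, 6 blood progenitor and 7 B cell genes lay above WT, where 16.3% of all genes did. Without WT lymphoma 3, 6 dendritic cell genes lay above WT (14.8% of all genes). Neutrophil genes went the other way without KO lymphoma 1, where 6 of 17 lay below WT (9.88% of all genes) and the median was -0.59. No marker of the macrophage, natural killer, platelet or B cell list was at 0 in all 6 libraries. The part of these cells in the differences of single genes was not tested.

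T cell transcripts were lower in KO libraries. The 20 pan-T genes had a median of -0.39, with 4 below WT in all KO libraries (20%, against 6.24% of all genes) and 0 above. Their sum was 5115, 4675 and 3997 CPM in WT and 3315, 4591 and 2318 in KO. KO lymphoma 2 lay within the WT range and KO lymphoma 3 was lowest. Each KO library was below the WT library of the same number, by little for number 2. Same-numbered libraries come from different mice, so they are not pairs. Cd28, the costimulatory receptor, was at 208, 180 and 149 in WT and at 132, 123 and 72.2 in KO (-0.71 ± 0.21, adjusted p = 0.34). Zap70, which docks on the phosphorylated receptor, was also below WT in each KO library (-0.42 ± 0.14, adjusted p = 0.365). Bcl11b, which maintains T cell identity, was at 705 to 925 CPM in WT and 375 to 684 in KO. Without KO lymphoma 3 the median of the list was -0.21. Without KO lymphoma 2 it was -0.68, and 17 of 20 lay below WT (16.8% of all genes did). Of 23 genes of the T cell receptor and its proximal signalling, a list that shares members with the pan-T list, 3 lay below WT and 0 above, with a median of -0.31. The median was -0.08 with 3 below without KO lymphoma 3 (11.5% of all genes), and -0.58 with 14 below without KO lymphoma 2 (16.8%). Without WT lymphoma 3, 9 lay below (14.8%).

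Genes of naive and quiescent T cells were lower too. Of 22 tested, 10 lay below WT in all KO libraries (45.5%) and 0 above, 15 had an unadjusted p under 0.05, and the median was -0.57. Satb1, a chromatin organiser of naive T cells, was at 622, 619 and 418 CPM in WT and at 253, 370 and 138 in KO (-1.12 ± 0.29, adjusted p = 0.323, 0.0237 by DESeq2 and 0.0321 by voom). Il7r, the survival receptor for interleukin 7, was at 494, 512 and 376 in WT and at 269, 350 and 120 in KO (-0.90 ± 0.29, adjusted p = 0.364). For both, WT lymphoma 3 was the lowest WT and KO lymphoma 2 the highest KO library, and the gap between them was small. Lef1 (-0.98 ± 0.30), a Wnt-responsive factor, and Bach2 (-0.99 ± 0.32), a repressor of effector genes, followed with adjusted p = 0.364, and the lymph node homing receptor Ccr7 differed by -0.85 ± 0.28. Without KO lymphoma 3 the count was again 10 of 22, against 11.5% of all genes, and the median -0.34. Without KO lymphoma 2 it was 19 of 22 and -0.75 (16.8% of all genes), and without WT lymphoma 3 17 of 22 (14.8%). With the pan-T score as a covariate the median was -0.11.

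**Figure D3:**
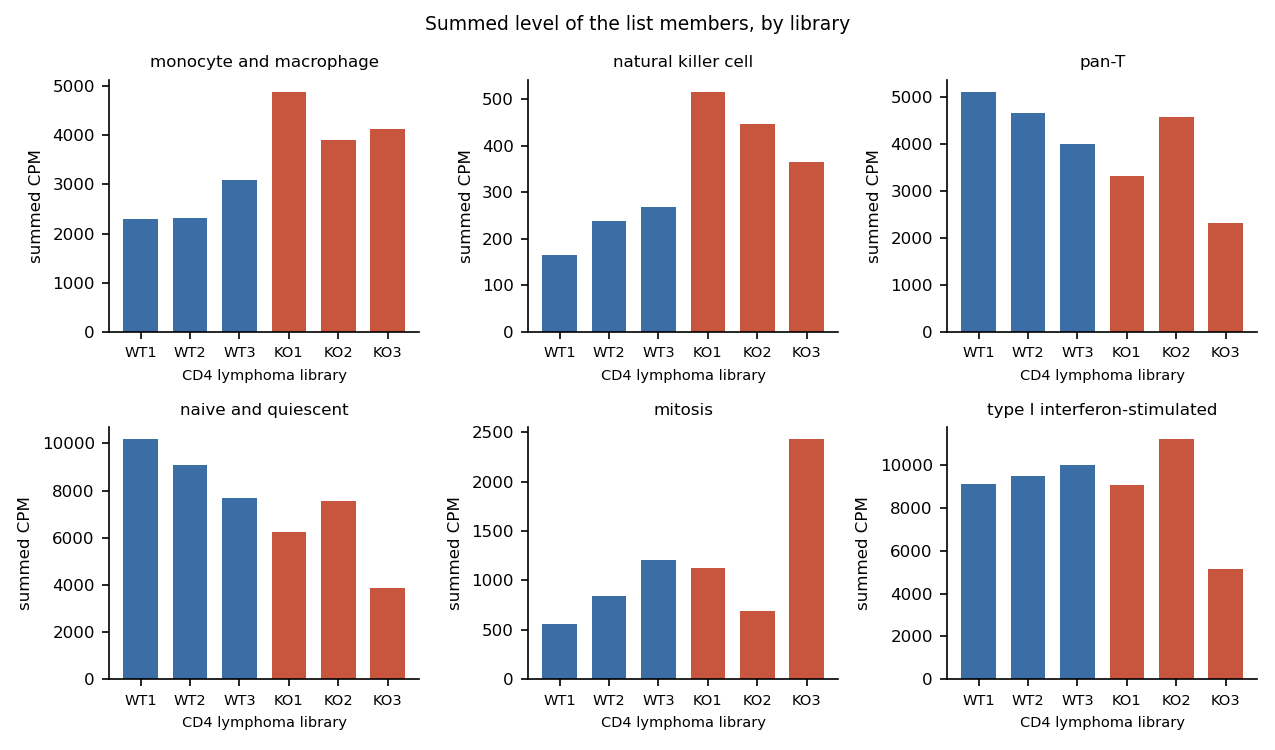
Summed CPM of the members of 6 gene lists in each CD4 lymphoma library (blue WT, red KO; bars start at 0). Macrophage and natural killer sums are higher in each KO than in each WT library, and KO lymphoma 3 holds the lowest pan-T, naive and interferon sums and the highest mitosis sum.

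Effector genes were higher in the same libraries. Of 35 effector and cytotoxic genes, 10 lay above WT and 0 below (28.6%), 14 had an unadjusted p under 0.05 in that direction and 1 in the other, and the median was 0.48. Tbx21, the T-bet factor of type 1 helper and cytotoxic cells, was at 52, 57.4 and 69.1 CPM in WT and at 98.1, 116 and 88.7 in KO (0.76 ± 0.23, adjusted p = 0.359). Klrg1, an inhibitory receptor of terminal effectors, was at 5, 6.54 and 12.8 in WT and at 14.3, 17.1 and 19.9 in KO (1.08 ± 0.37, adjusted p = 0.375). The adhesion receptor Cd44, raised on activated and memory cells, was at 94.7, 107 and 147 in WT and at 213, 143 and 209 in KO, so that 1 KO library lay just below WT lymphoma 3 (0.69 ± 0.19, adjusted p = 0.323). Lgals1, which encodes galectin 1, differed by 0.60 ± 0.17. Some of these genes, such as Gzma and Klrg1, are also made by natural killer cells, whose transcripts were higher as given above. Gzma is itself on the natural killer list, so the counts of these lists are not independent. Without KO lymphoma 2 or 3 the count was 17 of 35, and without WT lymphoma 3 it was 18, where 16.3%, 12% and 14.8% of all genes lay above WT.

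Most follicular helper genes were also higher, with 12 of 16 fold changes positive and 4 negative. Of the 16, 6 lay above WT and 0 below (37.5%, median 0.29). Without KO lymphoma 2, 9 lay above and 2 below (16.3% and 16.8% of all genes). Without WT lymphoma 3, 8 lay above and 3 below (14.8% each). Next to Tox2, Maf was at 286, 323 and 294.9 CPM in WT and at 486, 372 and 416 in KO (0.49 ± 0.14, adjusted p = 0.34), and P2rx7, an ATP-gated channel, was at 82.3 to 84.4 in WT and 101 to 136 in KO. Bcl6, the defining factor of these cells, stood at 32.6 to 35.2 in WT and 38.5 to 46.4 in KO (0.33 ± 0.14, adjusted p = 0.416). Regulatory T cell genes were divided, with 6 of 19 above and 3 below WT, and 10 above without KO lymphoma 2 (16.3% of all genes). Foxp3, their lineage factor, was at 14.8, 14 and 16.4 in WT and at 16.9, 20.3 and 18.2 in KO (0.30 ± 0.15, adjusted p = 0.485). Ebi3, a subunit of interleukin 35, was higher (1.02 ± 0.27, adjusted p = 0.323), and Gpr83 lower, as given above. Of 14 inhibitory checkpoint genes 2 lay above and 1 below WT (median 0.06).

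Chemokine and trafficking receptors differed in both directions. Of 20 genes 6 lay above and 4 below WT, and 9 and 8 without KO lymphoma 2 (16.3% and 16.8% of all genes). Ccr2, a receptor of inflammatory monocyte chemokines, was at 32.2, 48.8 and 37.6 CPM in WT and at 87.7, 49.1 and 58.5 in KO (0.72 ± 0.22, adjusted p = 0.364), with KO lymphoma 2 just above the highest WT library. Ccr7 was lower, as was Gpr183 (-0.44 ± 0.14, adjusted p = 0.364), the oxysterol receptor that guides cells to follicle borders. Of 16 helper factors and cytokines 4 lay above and 3 below. Il6ra (-0.46 ± 0.14) and Stat6 (-0.39 ± 0.12), which carry interleukin 6 and interleukin 4 signals, were both lower, with adjusted p = 0.364.

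Genes induced within minutes of stimulation tended to be lower. Of 26 immediate early genes 6 lay below WT and 0 above (23.1%, median -0.26). Dusp2, a phosphatase that switches off MAP kinases, was at 1273, 877 and 1053 CPM in WT and at 481, 732 and 413 in KO (-0.98 ± 0.27, adjusted p = 0.323). Cd69, the early activation antigen that holds cells in tissue, was at 106, 118 and 74.3 in WT and at 62.4, 69.2 and 25.7 in KO (-0.92 ± 0.34, adjusted p = 0.385). The AP-1 subunit gene Junb was at 907 to 1513 in WT and 568 to 725 in KO, and its fold change was uncertain (-0.91 ± 0.49). In CD4 controls the median of this list was 0.24. With all CD4 lymphoma libraries but KO lymphoma 3 the median was -0.12, with 6 genes below and 3 above WT (11.5% and 12% of all genes). Without KO lymphoma 1, and likewise without WT lymphoma 3, 10 genes lay below (9.88% and 14.8% of all genes).

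The targets of Atm signalling showed no common direction. Of 32 p53 target genes 4 lay above and 4 below WT (12.5% each), with a median of -0.002. The counts were 8 and 7 without KO lymphoma 2 (16.3% and 16.8% of all genes) and 5 and 10 without WT lymphoma 3 (14.8% each). Sesn1, a stress-induced inhibitor of mTORC1, was at 61.7, 41.2 and 44.3 CPM in WT and at 37.8, 22.7 and 24.3 in KO (-0.80 ± 0.21, adjusted p = 0.323). Bbc3, the pro-apoptotic PUMA, was at 57.1, 59.2 and 54.8 in WT and at 40.1, 42.4 and 40.2 in KO (-0.48 ± 0.16, adjusted p = 0.37). The nuclease gene Aen was higher, at 51.8, 52.6 and 53.4 in WT and 62.6, 68.3 and 67.3 in KO (0.33 ± 0.10, adjusted p = 0.364), as was Ei24 (0.35 ± 0.13). The groups of Sesn1, Bbc3 and Aen did not overlap, and for Sesn1 the gap was smaller than the spread within either group. Of 35 checkpoint and repair genes 1 lay above and 1 below, with Chek2, the kinase downstream of Atm, at 0.35 ± 0.16 and overlapping. The adaptor Mdc1 was slightly lower (-0.25 ± 0.12, adjusted p = 0.47). None of 8 other PI3K-like kinase genes, the family of Atm, separated the groups, and Atm itself, given above, is not among them.

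Proliferation genes were highest in 1 KO library. With all 6 libraries, none of 34 mitosis genes and none of 37 DNA replication genes separated the groups, although 33 and 37 had a positive fold change (medians 0.85 and 0.49). The mitosis sum was 559, 842 and 1203 CPM in WT and 1124, 687 and 2430 in KO. Aurka, a spindle kinase, was at 9.49, 13 and 25.9 in WT and at 23.7, 13.8 and 66 in KO, and Bub1b, a spindle checkpoint kinase, at 6.03 to 11.4 in WT and 6.94 to 36.9 in KO. KO lymphoma 3 was far above the others, and without it the medians were 0.03 and -0.09, with 0 genes of either list separated. Without KO lymphoma 2, 9 mitosis and 6 replication genes lay above WT (16.3% of all genes) and the mitosis median was 1.26. Without WT lymphoma 3, 6 and 4 lay above (14.8%). The erythroid and blood progenitor medians had the same dependence on KO lymphoma 3 (1.30 and 0.53 with, 0.35 and 0.04 without). Interferon transcripts were lowest in KO lymphoma 3: type I interferon-stimulated genes summed to 5164 CPM there and to 9100 to 11220 in the other 5 libraries. Of the 60 tested, 1 lay above and 5 below WT (median -0.21, and -0.03 without KO lymphoma 3). Without KO lymphoma 2 the count below was 22 (16.8% of all genes), and without WT lymphoma 1 it was 14 (8.22%). Of 36 genes of the interferon gamma response 1 lay above and 3 below (median -0.08), and 16 below without KO lymphoma 2 (16.8% of all genes). Ifit1, which binds foreign RNA, was at 97.7, 99.4 and 103 in WT and at 69, 82.1 and 42.4 in KO (-0.63 ± 0.24, adjusted p = 0.386), and Slfn1 differed by -0.62 ± 0.25.

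Among stress and metabolism lists, 6 of 25 antioxidant genes lay above WT and 0 below (24%, median 0.35). Srxn1, which repairs oxidised peroxiredoxins, was at 18.2, 16.2 and 23.1 CPM in WT and at 46.9, 47.2 and 29.1 in KO (1.10 ± 0.27, adjusted p = 0.256, 0.023 by DESeq2 and 0.038 by voom). Hmox1, the haem oxygenase that is also abundant in red pulp macrophages, was at 179, 125 and 112 in WT and at 266, 423 and 189 in KO (1.08 ± 0.29, adjusted p = 0.323). The antioxidant median was 0.20 without KO lymphoma 3, and the count above WT 13 without KO lymphoma 2 (16.3% of all genes) and 12 without WT lymphoma 3 (14.8%). Of 89 ribosomal protein genes 11 lay below WT and 1 above (12.4% and 1.12%, median -0.16), and 53 lay below without KO lymphoma 2 (16.8% of all genes), 23 without WT lymphoma 3 (14.8%). Beside Rplp1, Rps27 differed by -0.55 ± 0.15 (adjusted p = 0.323) and Rpl30 by -0.44 ± 0.16. Of 91 oxidative phosphorylation genes 6 lay above WT and 0 below (6.59%), and 10 and 12 without KO lymphoma 3 (12% and 11.5% of all genes), with Cox5a of cytochrome c oxidase at 0.37 ± 0.14. None of 22 glycolysis and none of 17 heat shock genes separated the groups, and 2 of 21 endoplasmic reticulum stress genes lay above WT. Without WT lymphoma 3, 7 heat shock, 7 endoplasmic reticulum, 5 glycolysis and 25 oxidative phosphorylation genes lay above WT, where 14.8% of all genes did. Without KO lymphoma 3, 5 heat shock genes lay above (12%), and without KO lymphoma 2, 6 endoplasmic reticulum genes (16.3%).

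**Figure D4:**
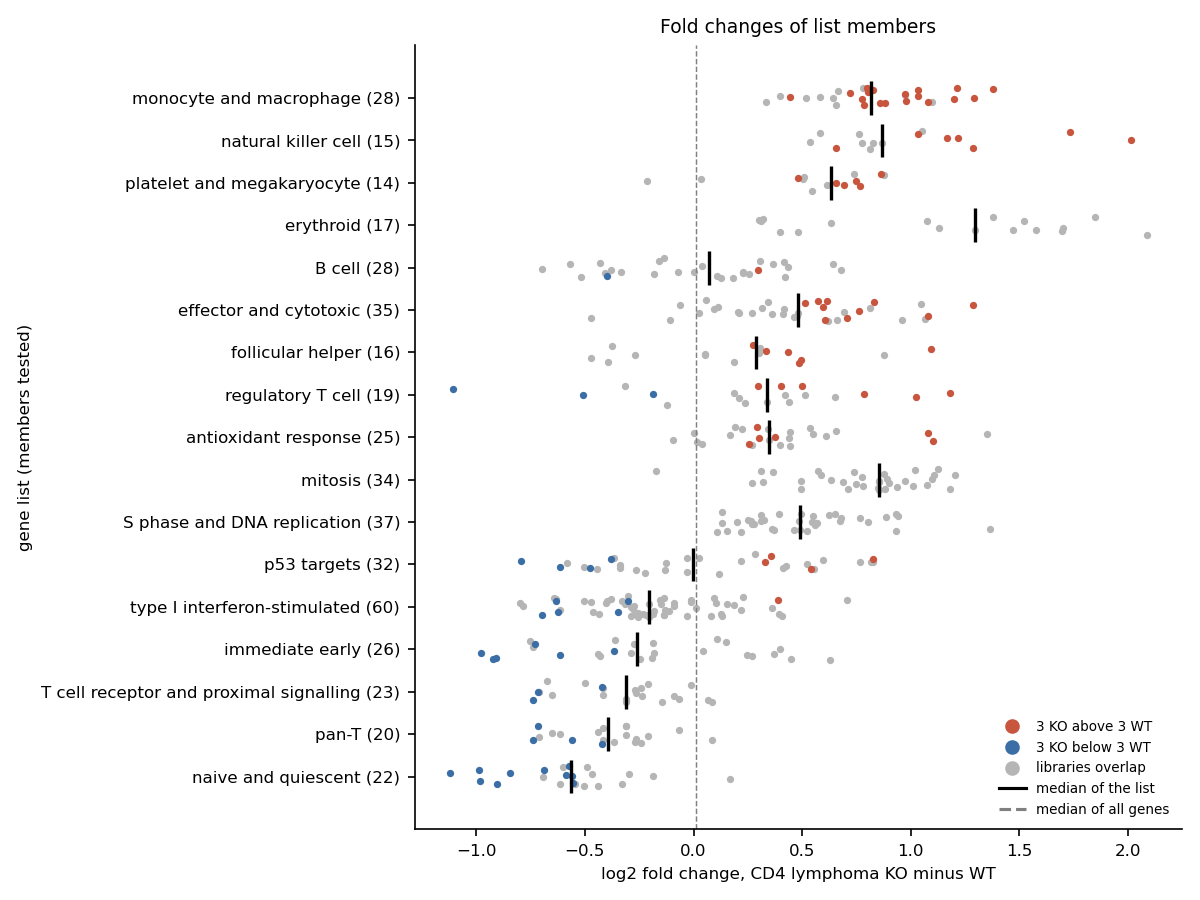
Log2 fold change (KO minus WT) of every tested member of 17 gene lists, coloured by whether the 3 KO libraries lie above (red) or below (blue) the 3 WT libraries or overlap (grey). Black bars are list medians and the dashed line is the median of all genes. The macrophage median lies at 0.82 and the naive median at -0.57, and mitosis genes are nearly all positive but overlap.

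Genes beside Atm on chromosome 9 were looked at because a disrupted allele is inherited with its flanking DNA. Within 5 Mb of Atm, 79 genes were tested, of which 9 lay above WT (11.4%) and 2 below (2.53%), and the median was -0.03. These counts were 17 and 14 without KO lymphoma 2 (16.3% and 16.8% of all genes), 13 and 12 without WT lymphoma 3 (14.8% each), and 13 and 7 without KO lymphoma 3 (12% and 11.5%). Il18 and the neighbouring 1110032A03Rik (1.10 ± 0.25, adjusted p = 0.253) had the lowest p of these and were called by both DESeq2 and voom. Within 10 Mb, a window chosen after seeing the data, 14 of 156 lay above and 10 below. On the whole chromosome 9 the groups were separated in either direction for 16.1% of 710 genes, against 8.67 to 15.7% on the other autosomes and X. Of the 30 genes named by rule, Il18, Ccr3, Rplp1, Gpr83, Tmie and Parp16 lie on chromosome 9. The share of such differences that stems from flanking sequence was not tested.

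The genotype difference of these cells was then set beside that in CD4 cells without lymphoma and in CD8 cells of the same mice. For the 15 higher genes, 13 also lay above WT in CD4 controls (18.2% of all genes did) and 12 in CD8 lymphoma libraries (9.78%). For the lower genes, 8 of 15 lay below WT in CD4 controls (15.4%), 1 above, and 12 of the 14 tested in CD8 lymphoma libraries (11.4%). The CD4 and CD8 libraries come from the same mice and so are not independent. In a direct test of lymphoma against control, 0 genes differed in their CD4 genotype effect by edgeR (466 at an unadjusted p under 0.05), 1 by DESeq2 and 0 by voom. The macrophage median was 1.15 in CD4 controls and 0.59 in CD8 lymphoma libraries, and the naive median -0.36 and -0.55. The B cell median was 1.49 in CD4 controls and 2.41 in CD8 lymphoma libraries, against 0.07 here.

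**Figure D5:**
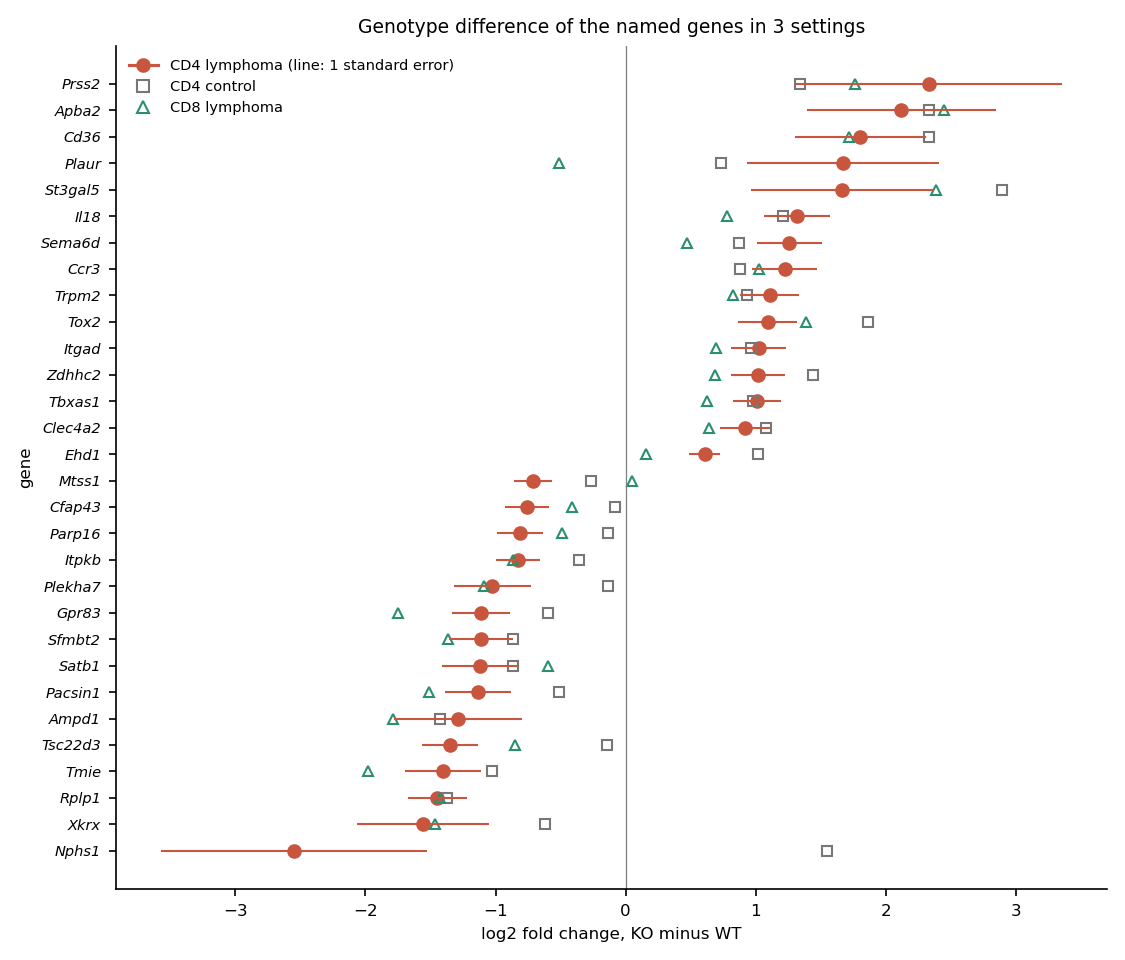
Log2 fold change (KO minus WT) of the 30 genes chosen in CD4 lymphoma libraries (red, with 1 standard error) beside the same contrast in CD4 controls (grey squares) and CD8 lymphoma libraries (green triangles). Tsc22d3 lies at -0.14 in CD4 controls, Plaur at -0.51 in CD8, and Nphs1 on opposite sides in CD4 lymphoma and CD4 controls.

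Between co-receptors, the genotype effect with lymphoma differed for 2 of 13232 genes (0.0151%) in the fit of all 24 libraries, of which Itgae is described. Itgae, the CD103 integrin chain of resident and CD8 T cells, was at 2.86, 2.59 and 1.39 in WT and 6.6, 3.9 and 5.19 in KO CD4 libraries, and at 27.8, 22.3 and 18.3 in WT and 5.65, 11.6 and 4.22 in KO CD8 libraries (difference -2.85 ± 0.47, adjusted p = 0.0449). It was thus higher in KO CD4 and lower in KO CD8 cells, and the groups did not overlap in either cell type. With the mouse pool as a block no gene passed (smallest adjusted p = 0.107). With 1 library left out, edgeR called 2 genes without CD8 KO lymphoma 2, and Itgae was among them. It called 1 gene without CD4 KO lymphoma 3 or CD8 WT lymphoma 3, which was not Itgae, and 0 without any of the other 9.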

How the data were processed

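Polyadenylated RNA of 24 libraries of splenic CD4 and CD8 T cells was sequenced as 3′ tags. The deposited table holds the authors' estimated counts for 34113 genes. The submitters' processing notes name Salmon 0.11.3 and GRCh38, without their roles, while the table carries mouse gene symbols. Counts were rounded to whole numbers, and 2 genes with a cell that was not a number were left out.

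Groups came from the labels. The 12 CD4 libraries were fitted together (8 residual degrees of freedom) with edgeR 4.0.16 in R 4.3.3: filterByExpr (minimum count 10, minimum total 15), TMM factors and the quasi-likelihood test, with Benjamini-Hochberg adjustment. CPM used TMM-scaled library sizes. In the CD8 fit 12650 genes were tested, and 13232 in the fit of all 24 libraries. DESeq2 1.42.0 and limma 3.58.1 (voom with sample weights), other scalings and filters, covariates, a replicate block and leaving out each library were tried as alternatives. The programs were tested on simulated data.

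Genes were named by rule: Atm and the co-receptor genes. From genes whose groups did not overlap and whose higher group averaged at least 5 CPM (598 higher, 633 lower in KO), the 10 with the smallest p and the 5 with the largest fold in each direction followed. From each list came up to 4 members with the smallest p, or up to 3 with the highest level for other cell types. Some genes that the rule or a list holds are not reported here, though they remain in the counts. The comparison, the lists and the rule were chosen with earlier results of these data known.

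Same-numbered WT and KO libraries deviated together from their group means (correlations 0.233, 0.185 and 0.336, other pairs -0.251 to 0.093). Deviations from a group mean depend on each other, and so do these correlations. The libraries come from different mice, and the main fit held no pairing term. A block for the replicate number was fitted as an alternative only. Positions are from GENCODE M21 (GRCm38).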

Additional observations from a re-analysis of the deposited data

Results flagged for a closer look

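In the fit of all 24 libraries the effect of the genotype with lymphoma differed between CD8 and CD4 cells for Itgae (CD8 minus CD4 -2.85 on the log2 scale, edgeR adjusted p = 0.0449). All 3 KO libraries were above WT in CD4 and below WT in CD8 cells. With the mouse pool as a block, which the CD4 and CD8 libraries share, no gene passed (smallest adjusted p = 0.107). The cause was not tested.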

How the results depend on the processing

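The number of genes called between KO and WT CD4 cells with lymphoma, 0 in the edgeR fit of 12 libraries, was 3 with no filter on low counts, 85 by DESeq2, 81 by voom, 1 in the edgeR fit of the 6 libraries compared (4 by voom), 1 in the fit of all 24 and 2 with the pan-T score as a covariate. With the replicate number as a block it was 1 (Gm11942) in the 6 lymphoma libraries and 0 in the 12 CD4 libraries. With 1 library left out it was 0 to 3. The cause of these differences was not tested. It stayed 0 under both other scalings, the stricter filter, the Y-linked and B cell covariates, without genes of other cell types, and with the Rplp1 copies summed, an alternative chosen after seeing the data, like the list counts with 1 library left out. For lymphoma minus control, 0 calls became 1 by DESeq2 and ranged from 0 to 1 with 1 library left out. For CD8 minus CD4, 2 calls became 4 by DESeq2, 0 with the mouse pool as a replicate block, and 0 to 2 with 1 library left out.

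Of 89 genes under 28 settings, 9 values changed sign and 73 passed the threshold in addition. Cd8a turned to -0.20 by voom, -0.12 by voom in 6 libraries, and ranged from -0.70 to 1.6 with 1 library left out. Cd8b1 turned to -0.35 and -0.30, and ranged from -0.61 to 0.62. With the pan-T covariate Bub1b was -0.39, Aurka -0.31 and Ighm -0.11. Of the list medians, 1024 moved by less than the spread between libraries and 30 by more. With 3 libraries against 3, an exact permutation test of a single gene cannot give less than 0.1.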
